A study of Mus musculus with 6 samples.

Results

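Bone marrow cultures of myeloid-derived suppressor cells (MDSCs) that received no mitochondrial DNA are described here at baseline. They are the samples whose column names carry the word blank, 3 of the 6 RNA sequencing samples of the study. The other 3 samples were transfected with mitochondrial DNA and are not compared with them. Marrow came from the legs of C57BL/6 mice. After red cell lysis the cells grew for 4 days with GM-CSF at 40 ng/ml and IL-6 at 40 ng/ml, and the polymorphonuclear fraction (PMN-MDSC) was then taken with a commercial MDSC kit, re-seeded in fresh medium, and collected for RNA after 12 h. The labels give no age, sex or allele of the mice and no purity of the fraction. Nothing in them shows that the 3 libraries are of different mice or cultures, so an SD covers only how these libraries vary, part of which may be technical. They also leave unsaid whether blank wells received the lipid reagent.

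MDSCs are immature, activated myeloid cells known for dampening T cell activity through arginine and cystine depletion, reactive oxygen species, checkpoint ligands and prostaglandins. In mice a polymorphonuclear kind, defined at the surface by Ly6G, is told from a monocytic kind, defined by high Ly6C without Ly6G. GM-CSF drives granulocyte, macrophage and dendritic cell growth from marrow, and IL-6 is added to favour the suppressive state. Cytosolic DNA is read by the enzyme cGAS and the adaptor STING, by AIM2-like receptors and, in endosomes, by the receptor TLR9, which all lead to interferons or inflammatory cytokines.

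The libraries held 4018360 to 4796800 counts, so 1 read was worth 0.209 to 0.249 CPM, the counts scaled to a library total of 1000000. A gene was counted as detected where it reached 1 CPM in each library, which 11602 genes did, 10982 of them protein-coding. A gene with at most 3 reads over the 3 libraries was treated as being at the floor, which is 0.232 CPM over the group and covers counting error only. The 50 most abundant genes took 16.6% ± 0.211 (SD, n = 3) of the counts, and the 777 most abundant took 50%. Mitochondrially encoded protein genes took 1.69% ± 0.0977 (SD, n = 3), a share without 6 of the 13 such genes, which were listed at 0 reads. Levels of different genes are compared per length, as counts per kilobase of merged exons scaled to sum to 1000000 in each library, named TPM here. The median detected gene stood at 22.2 TPM.

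Among protein-coding nuclear genes, Lyz2 was the most abundant per length, followed by ferritin, lysosomal and calprotectin genes. Lyz2, the lysozyme of macrophages and granulocytes, stood at 27470, 25914 and 25543 TPM in blank 1, 2 and 3. The ferritin light chain gene Ftl1 stood at 23774 TPM ± 632 (SD, n = 3), but 84.8% of the 75-base windows of its transcript also occur in other genes, so its count is uncertain. Psap, the precursor of the saposins that help lysosomal enzymes degrade sphingolipids, stood at 15402 TPM ± 506 (SD, n = 3). Fth1, the ferritin heavy chain gene, stood at 12102 TPM ± 192 (SD, n = 3). The 3 libraries of Lyz2, Ftl1 and Psap did not overlap with those of the next gene in the order.

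S100a9 and S100a8 encode the subunits of calprotectin, the calcium-binding protein that fills neutrophil and monocyte cytoplasm. S100a9 stood at 10824, 11925 and 12266 TPM, and S100a8 at 7867, 8180 and 8539 TPM, so blank 1 was the lowest library for both. Cd74, the invariant chain that escorts class II antigen-presenting molecules, followed at 8030 TPM ± 379 (SD, n = 3) and overlapped with S100a8. The rest of the 20 highest genes were Actb and Tmsb4x of the cytoskeleton, the galectin gene Lgals3, the lectin receptor gene Clec4n, Rplp1 and Eef1a1 of the translation machinery, B2m, the peroxide reductase gene Prdx1, the neutrophil collagenase gene Mmp8, the protease inhibitor gene Cst3, the signalling adaptor gene Tyrobp, Thbs1 and Sh3bgrl3. They ran from 7760 TPM for Actb to 3162 TPM for Sh3bgrl3. Of the 19 neighbouring pairs in this order, 11 overlapped between libraries, so much of the order below Psap is not resolved. With the length of the longest transcript in place of merged exons, 16 of the 20 genes were shared.

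**Figure D1:**
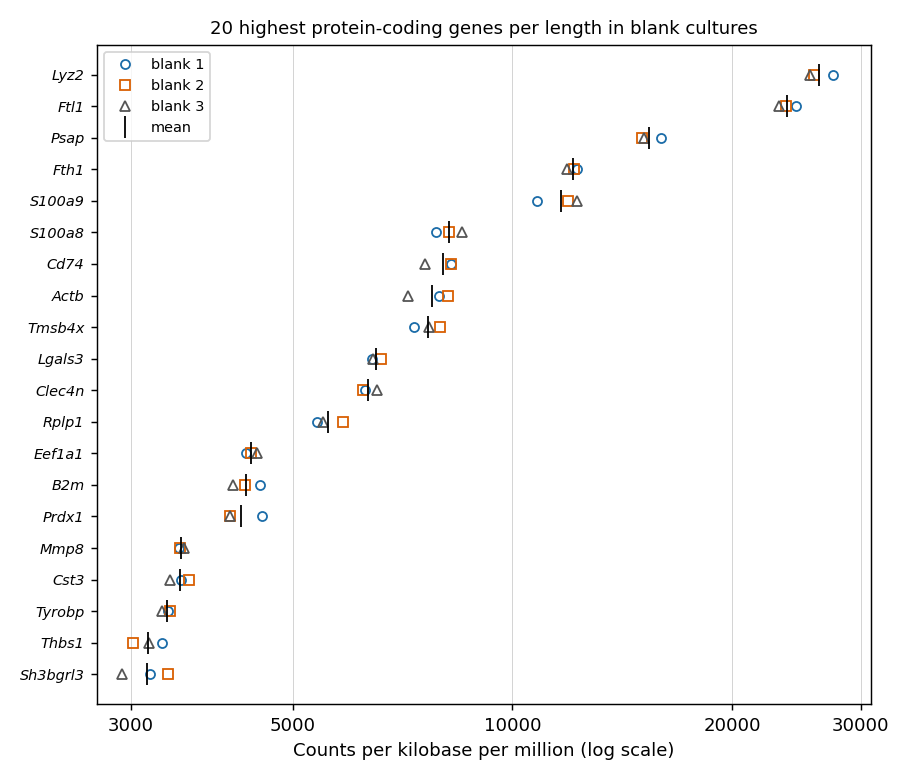
Levels per length of the 20 highest protein-coding genes, mitochondrially encoded genes apart, in TPM on a log axis, with 1 symbol for each blank library and a bar for the mean. Lyz2 stands at 26309 on average and Sh3bgrl3 at 3162, and the libraries of a gene lie closer to each other than the whole range of genes.

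Of the 6 genes chosen to mark these cells, 5 were abundant and Ly6g was low. Ly6g, which encodes the surface protein that defines the polymorphonuclear kind, had 18, 22 and 25 reads in blank 1, 2 and 3, or 17.3 TPM ± 3.52 (SD, n = 3), and was in place 6630 of the genes ordered per length. Csf1r, the receptor gene of the monocyte and macrophage growth factor M-CSF, had 6123, 7089 and 5907 reads, or 826 TPM ± 11.0 (SD, n = 3). The libraries of Csf1r and Ly6g did not overlap, and the ratio of Csf1r to Ly6g per length was 55.5, 52.6 and 38.6. Mpo, the myeloperoxidase gene of granulocyte and monocyte precursors, had 1715, 2302 and 1814 reads, or 423 TPM ± 25.8 (SD, n = 3). No 75-base window of the Ly6g transcript occurs in another gene.

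The label of a polymorphonuclear fraction was therefore met in part. Granule and calprotectin genes were abundant, while the gene of the defining surface marker was below the median detected gene, and Ly6c2, which encodes Ly6C, exceeded it 39.0-fold ± 8.25 (SD, n = 3) per length. Ly6c2 had 2351, 2723 and 2152 reads, or 657 TPM ± 22.6 (SD, n = 3). They are accordingly named blank cultures below, with no cell type implied. These are bulk libraries, in which fewer cells of a type and less RNA per cell cannot be told apart, and a transcript level is not a surface protein level.

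All 44 neutrophil list genes found in the table were detected, at a summed 19335, 19762 and 19970 CPM in blank 1, 2 and 3. Genes of the primary granules, made at the promyelocyte stage, had a median of 137 TPM. After Calr, a chaperone gene that most cells express, and Mpo came the serine protease genes Ctsg at 248 TPM ± 17.4 (SD, n = 3), Elane at 217 TPM ± 13.2 (SD, n = 3) and Prtn3 at 137 TPM ± 6.60 (SD, n = 3). Elane had 263, 344 and 254 reads. Primary granule protease transcripts, which fall as neutrophils mature in the marrow, were present in every library.

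The list of secondary granules, made at the myelocyte stage, had the highest median of the neutrophil lists, 658 TPM. Its top member was Cyba, a subunit gene of the phagocyte oxidase, at 2984 TPM ± 119 (SD, n = 3). Chil3, which encodes the chitinase-like protein Ym1, had 5214, 5609 and 4876 reads and stood at 2406 TPM ± 120 (SD, n = 3), and Ngp, the neutrophilic granule protein gene, had 3421, 4073 and 3446 reads at 2234 TPM ± 34.4 (SD, n = 3). The lactoferrin gene Ltf stood at 353 TPM ± 18.9 (SD, n = 3) and the cathelicidin gene Camp at 148 TPM ± 18.1 (SD, n = 3). At the bottom of the list, Retnlg, a gene of mature marrow neutrophils, had only 16, 15 and 15 reads, and Olfm4 stood at 32.6 TPM ± 1.59 (SD, n = 3). Cyba, Cybb, Itgb2 and Anxa1 of this list are also expressed by macrophages and other leukocytes. They all lie above the list median, whereas Ltf, Camp, Olfm4 and Retnlg lie below it. The median is therefore not a level of granule proteins alone.

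The third neutrophil list, of late granules and maturity, spanned the widest range. S100a9, S100a8 and Mmp8 led it, the last at 3498, 3505 and 3546 TPM. Wfdc21 followed at 1689 TPM ± 90.2 (SD, n = 3), and Fpr2, a formyl peptide receptor gene, at 453 TPM ± 20.6 (SD, n = 3). The G-CSF receptor gene Csf3r had 1183, 1500 and 1149 reads and stood at 264 TPM ± 10.7 (SD, n = 3), so Csf1r exceeded it 3.13-fold ± 0.156 (SD, n = 3) per length. Cxcr2, the receptor gene by which mature neutrophils leave the marrow, had 198, 196 and 183 reads at 47.5 TPM ± 4.37 (SD, n = 3). Itgam, which encodes CD11b, stood at 336 TPM ± 17.5 (SD, n = 3), a value that is uncertain because 68.7% of its exon bases overlap another gene on the same strand. The lowest members were Ly6g and G0s2.

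Of the monocyte and macrophage genes, 38 of 41 were detected at a summed 30426, 29898 and 29670 CPM. Lyz2, which granulocytes also express, made up a large part of that sum, and without it the sum was 19265 CPM ± 54.7 (SD, n = 3). In the monocyte list, all 16 genes were detected. The lysosomal protease gene Ctss led at 3053 TPM ± 132 (SD, n = 3), followed by Mpeg1, which encodes the pore-forming protein perforin-2, at 1588 TPM ± 75.2 (SD, n = 3). Ccr2, the receptor gene that guides inflammatory monocytes, had 1393, 1836 and 1434 reads at 172 TPM ± 8.86 (SD, n = 3). Cx3cr1, marked in patrolling monocytes, was the lowest, at 13, 9 and 9 reads.

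The macrophage list held both high and low genes, with 22 of 25 detected. Lgals3 led after Lyz2 at 6427, 6617 and 6453 TPM. The osteopontin gene Spp1 had 4044, 4576 and 3937 reads and stood at 1904 TPM ± 50.6 (SD, n = 3), and Gpnmb, a transmembrane glycoprotein gene of lysosome-loaded macrophages, stood at 1609 TPM ± 33.9 (SD, n = 3). Cd68 stood at 1807 TPM ± 72.0 (SD, n = 3), Adgre1, which encodes F4/80, at 519 TPM ± 15.3 (SD, n = 3), and the scavenger receptor gene Msr1 at 380 TPM ± 16.3 (SD, n = 3). Adgre1 had 2170, 2558 and 2013 reads, against the 18 to 25 of Ly6g.

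Further members of the same list stood lower. The complement gene C1qb stood at 168 TPM ± 1.64 (SD, n = 3), C1qc at 42.4 TPM ± 8.09 (SD, n = 3), and C1qa at 32.2 TPM ± 1.11 (SD, n = 3). Apoe, abundant in many resident macrophages, had 20, 27 and 23 reads. Pparg, a fatty acid-sensing factor gene, stood at 17.1 TPM ± 3.95 (SD, n = 3) and the fatty acid-binding protein gene Fabp4 at 4.70 TPM ± 0.293 (SD, n = 3). The haemoglobin scavenger gene Cd163 had 1 read in all, Vsig4 of Kupffer cells had none, and Cd5l had 5, 2 and 3 reads.

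Class II antigen presentation genes were high in every library. H2-Eb1, H2-Ab1 and H2-Aa, the chains of the class II molecules, stood at 1553 TPM ± 18.0, 1238 TPM ± 41.0 and 1124 TPM ± 15.4 (SD, n = 3 each). H2-Eb1 had 3866, 4538 and 3703 reads. Of the 21 dendritic cell genes, 18 were detected, among them Ccl22, a chemokine gene of mature dendritic cells, at 581 TPM ± 1.64 (SD, n = 3), Ccr7, the receptor gene for lymph node homing, at 471 TPM ± 12.3 (SD, n = 3), and Itgax, which encodes CD11c, at 297 TPM ± 4.43 (SD, n = 3). Ccr7 had 1214, 1381 and 1137 reads. The lineage genes of conventional dendritic cells stood far below these, with Zbtb46 at 34, 36 and 36 reads, Flt3 at 23, 36 and 29, Clec9a at 6.44 TPM ± 1.16 (SD, n = 3), and Xcr1 at 2 reads in all. Siglech of plasmacytoid cells had 0, 2 and 3 reads.

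All 22 antigen presentation genes were detected. B2m, the light chain of class I molecules, led after Cd74 at 4324 TPM ± 184 (SD, n = 3), with H2-D1 at 1630 TPM ± 36.1 (SD, n = 3). The costimulatory genes Cd86 and Cd80 stood at 91.2 TPM ± 3.14 (SD, n = 3) and 37.6 TPM ± 3.10 (SD, n = 3), and Cd40 was the lowest of the list at 8.42 TPM ± 2.04 (SD, n = 3). Ciita, the master regulator of class II genes, stood at 29.5 TPM ± 0.667 (SD, n = 3).

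Some markers of other marrow lineages were also well above the median detected gene. Among basophil protease genes, Mcpt8 had 315, 377 and 328 reads at 255 TPM ± 8.53 (SD, n = 3), Prss34 stood at 196 TPM ± 4.45 (SD, n = 3), and Cpa3 at 102 TPM ± 13.9 (SD, n = 3). The mast cell protease genes Mcpt4, Cma1, Tpsb2 and Mcpt2 had no read, Mcpt1 had 2 reads and Il4 had 2. The platelet chemokine genes Pf4 and Ppbp stood higher than these and above Mpo, at 503 TPM ± 13.6 (SD, n = 3) and 497 TPM ± 31.6 (SD, n = 3), with the platelet genes Vwf at 56.4 TPM ± 3.41 (SD, n = 3) and Itga2b at 51.9 TPM ± 0.643 (SD, n = 3). Gp1bb had 1 read, but 92.9% of its exon bases overlap another gene on the same strand. Of the eosinophil granule genes, Prg2 stood at 72.5 TPM ± 1.10 (SD, n = 3), Ear2 at 67.2 TPM ± 3.92 (SD, n = 3) and Epx at 13.6 TPM ± 3.96 (SD, n = 3), and Ccr3 had 3 reads.

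Lymphoid and erythroid genes were near the floor with few exceptions. In the T and NK cell list 4 of 16 genes were detected, and Il7r, which myeloid cells can also express, was far above the rest at 162 TPM ± 9.68 (SD, n = 3). Cd3e had 2 reads, Prf1 had 2, Zap70 had 3, and Gzma and Ncr1 had none. In the B and plasma cell list 8 of 12 genes were detected, led by Xbp1, a stress-response factor gene of many cells, at 230 TPM ± 5.14 (SD, n = 3), Igkc at 105 TPM ± 22.2 (SD, n = 3) and Ighm at 89.2 TPM ± 8.28 (SD, n = 3). Vpreb1 had 3 reads and Mzb1 had 1, though 74.9% of the windows of Mzb1 occur in other genes. Of 12 erythroid genes 3 were detected, with Hbb-bt, Car1 and Slc4a1 at no read and Hba-a2, Klf1 and Alas2 at 1 read each, though the globin genes share 56.6% to 81.0% of their windows with other genes.

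The progenitor list had 13 of 14 genes detected at a median of 8.38 TPM. Cd48 led at 209 TPM ± 13.4 (SD, n = 3) and Procr followed at 177 TPM ± 22.7 (SD, n = 3), while Cd34 stood at 6.58 TPM ± 0.842 (SD, n = 3), Kit at 11.7 TPM ± 0.926 (SD, n = 3), and Mecom had 1 read. In the stroma and endothelium list 8 of 14 genes were detected, led by Acta2 at 36.1 TPM ± 2.19 (SD, n = 3), and Pdgfra had 2 reads. Of 9 osteoclast genes 7 were detected, led by the cell fusion gene Dcstamp at 136 TPM ± 2.81 (SD, n = 3), with no read of the calcitonin receptor gene Calcr or of Oscar. The share of each cell type in the cultures was not measured.

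**Figure D2:**
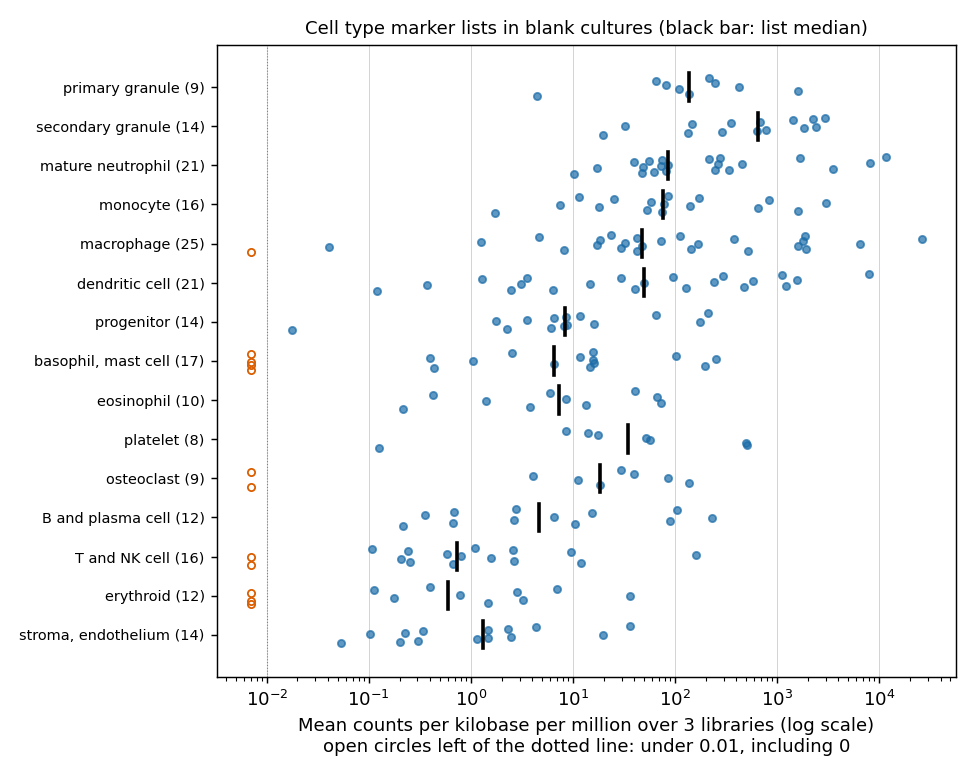
Mean level per length of every member of the 15 cell type lists in the 3 blank libraries, in TPM on a log axis, with the number of members after each name, 1 point for a gene and a black bar for the list median. Medians run from 658 for the secondary granule list, which also holds genes of other leukocytes, to 0.592 for the erythroid list. The monocyte list (76.5) and the mature neutrophil list (84.5) lie close to each other.

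All 33 transcription factor genes of the lineage list were detected. Cebpb, the factor of emergency granulopoiesis and of MDSC function, stood at 442, 532 and 568 TPM, lowest in blank 1. Spi1, which encodes PU.1 of all myeloid cells, stood at 500 TPM ± 18.8 (SD, n = 3), and Id2, an inhibitor of helix-loop-helix factors, at 492 TPM ± 24.4 (SD, n = 3). These 3 overlapped between libraries. Irf5 stood at 399 TPM ± 12.8 (SD, n = 3), Cebpa, required for early granulocyte and monocyte commitment, at 178 TPM ± 20.1 (SD, n = 3), and Irf8, which favours monocytes and dendritic cells over granulocytes, at 85.3 TPM ± 3.06 (SD, n = 3). Cebpe, needed for secondary granules, had 119, 126 and 83 reads at 65.7 TPM ± 11.0 (SD, n = 3), and Gfi1, a neutrophil fate gene, had 32, 49 and 31 reads at 8.67 TPM ± 1.35 (SD, n = 3).

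Receptor genes for the growth factor GM-CSF were among the highest receptors. Of 32 cytokine receptor genes 31 were detected, all but Il5ra at 2 reads in each library. Csf2rb, the shared beta chain of the GM-CSF, IL-3 and IL-5 receptors, had 13417, 15357 and 12818 reads and stood at 1427 TPM ± 27.7 (SD, n = 3). Its mouse paralogue Csf2rb2 stood at 749 TPM ± 16.9 (SD, n = 3), and Csf2ra, the chain that binds GM-CSF, at 506 TPM ± 18.6 (SD, n = 3). These beta chain genes share 10.7% and 11.1% of their windows with other genes. The TNF receptor gene Tnfrsf1b stood between Csf2rb and Csf1r, at 1114 TPM ± 64.5 (SD, n = 3).

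Receptor genes for the other added cytokine stood lower. Il6ra, which binds IL-6, had 417, 533 and 464 reads at 40.8 TPM ± 2.58 (SD, n = 3), and the signalling chain gene Il6st had 912, 1083 and 910 reads at 65.3 TPM ± 0.696 (SD, n = 3). Per length, Csf2rb exceeded Il6ra 35.1-fold ± 2.80 (SD, n = 3). The type I interferon receptor genes Ifnar1 and Ifnar2 stood at 103 TPM ± 2.60 (SD, n = 3) and 81.3 TPM ± 2.25 (SD, n = 3), and those of interferon gamma, Ifngr1 and Ifngr2, at 166 TPM ± 7.89 (SD, n = 3) and 123 TPM ± 5.01 (SD, n = 3). Both chains of both interferon receptors were thus above the median detected gene in every library.

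Of 30 chemokine and adhesion receptor genes 27 were detected. The integrin beta chain gene Itgb2 led at 1845 TPM ± 22.1 (SD, n = 3), followed by Sirpa, the receptor gene for the CD47 signal, at 922 TPM ± 24.5 (SD, n = 3), and Ccr1 at 495 TPM ± 4.82 (SD, n = 3). Cxcr4, which holds granulocytes in marrow, stood at 176 TPM ± 13.9 (SD, n = 3), above Cxcr2. Cxcr1 had 4 reads and Cxcr3 had 14.

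All 36 pattern, Fc and scavenger receptor genes were detected. Clec4n, which encodes the fungal mannan receptor Dectin-2, had 11276, 13321 and 11478 reads and stood at 6342 TPM ± 152 (SD, n = 3). Its signalling partner Fcer1g stood at 1854 TPM ± 71.2 (SD, n = 3), the adaptor Tyrobp at 3363 TPM ± 43.7 (SD, n = 3), and the related lectin receptor genes Clec4d and Clec7a at 1019 TPM ± 11.3 (SD, n = 3) and 997 TPM ± 28.1 (SD, n = 3). The last pair overlapped between libraries.

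Toll-like receptor genes spread over 2 orders of magnitude. Tlr2, which reads bacterial lipopeptides, led at 453 TPM ± 18.8 (SD, n = 3). Tlr13, the mouse receptor of bacterial ribosomal RNA, had 1410, 1451 and 1239 reads at 238 TPM ± 18.2 (SD, n = 3). The RNA receptor gene Tlr7 stood at 64.6 TPM ± 2.40 (SD, n = 3), the lipopolysaccharide receptor gene Tlr4 at 50.8 TPM ± 0.613 (SD, n = 3) and its partner Cd14 at 277 TPM ± 15.5 (SD, n = 3). Tlr9, which reads unmethylated CpG DNA, had 87, 115 and 92 reads at 21.02 TPM ± 1.14 (SD, n = 3), and Tlr13 exceeded it 11.4-fold ± 1.52 (SD, n = 3). The lowest was Tlr3, with 28, 24 and 26 reads.

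Of 42 genes of DNA sensing and DNA clearance 38 were detected before any DNA was given, with a median of 43.6 TPM over the whole list. Sting1, the adaptor gene downstream of cGAS, had 354, 430 and 342 reads at 102 TPM ± 1.86 (SD, n = 3). Cgas itself had 84, 87 and 110 reads at 17.2 TPM ± 3.86 (SD, n = 3). The 2 genes did not overlap, and Sting1 exceeded Cgas 6.34-fold, 7.44-fold and 4.68-fold per length in blank 1, 2 and 3. The kinase gene Tbk1, which relays the signal, stood at 84.4 TPM ± 1.03 (SD, n = 3), and the factor gene Irf3 at 48.9 TPM ± 6.73 (SD, n = 3).

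The endosomal arm was led by its helpers. Unc93b1, the chaperone gene that carries Toll-like receptors to endosomes, had 1731, 2007 and 1591 reads at 438 TPM ± 14.2 (SD, n = 3). Pld3 and Pld4, the genes of exonucleases that trim DNA in endolysosomes, stood at 356 TPM ± 5.93 (SD, n = 3) and 246 TPM ± 7.57 (SD, n = 3), and Myd88, the adaptor, at 217 TPM ± 9.08 (SD, n = 3). Dnase2a, the acid nuclease gene of lysosomes, stood at 62.8 TPM ± 3.67 (SD, n = 3). Their levels stood above that of Tlr9 in every library.

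AIM2-like receptor genes varied more between the libraries than Sting1 or Tbk1, though not all of them more than Cgas or Irf3. Aim2, which starts an inflammasome on DNA, had 200, 218 and 215 reads at 45.4 TPM ± 4.06 (SD, n = 3). Ifi204 had 501, 318 and 363 reads, with a coefficient of variation (SD over mean, CV) of 30.0% for its CPM, and Ifi207 had 661, 485 and 562 reads with a CV of 22.6%, both highest in blank 1 and lowest in blank 2. For Sting1 the CV was 2.74% and for Tbk1 0.663%. Cgas at 21.9% and Irf3 at 13.5% varied more than Aim2, at 8.25%. Ifi211, with a CV of 50.04%, shares 63.6% of its windows with other genes and is uncertain.

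Nuclease genes completed the list. Samhd1, which lowers the supply of deoxynucleotides, stood at 200 TPM ± 14.2 (SD, n = 3). Trex1, the cytosolic DNA exonuclease gene, had no read, but all its exon bases (100%) overlap another gene on the same strand and 93.0% of its windows occur in other genes, so the count says nothing of its level. Dnase1 had no read, which allows up to 0.232 CPM, and Dnase1l3 had 5, 2 and 0 reads.

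All 24 RNA sensing genes were detected. After Tlr13, the ubiquitin ligase gene Trim25 stood at 108 TPM ± 12.4 (SD, n = 3), followed by the kinase gene Irak1 at 98.6 TPM ± 1.39 (SD, n = 3). Rigi, which encodes the sensor of RNA with a triphosphate end, had 421, 267 and 287 reads at 35.1 TPM ± 11.2 (SD, n = 3). Ifih1, which encodes MDA5, had 172, 132 and 153 reads at 14.2 TPM ± 3.06 (SD, n = 3). Their adaptor gene Mavs stood at 41.0 TPM ± 1.29 (SD, n = 3), with a narrower spread than either sensor.

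All 16 inflammasome genes were detected. Ninj1, which ruptures the plasma membrane of dying cells, led at 370 TPM ± 9.07 (SD, n = 3), followed by the pore-forming gasdermin gene Gsdmd at 249 TPM ± 16.1 (SD, n = 3), Casp1 at 142 TPM ± 6.93 (SD, n = 3), the adaptor gene Pycard at 131 TPM ± 2.33 (SD, n = 3) and the sensor gene Nlrp3 at 121 TPM ± 3.39 (SD, n = 3). Casp1, Pycard and Nlrp3 did not overlap between libraries. Il1b, their substrate, had 173, 218 and 166 reads at 72.6 TPM ± 3.01 (SD, n = 3).

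**Figure D3:**
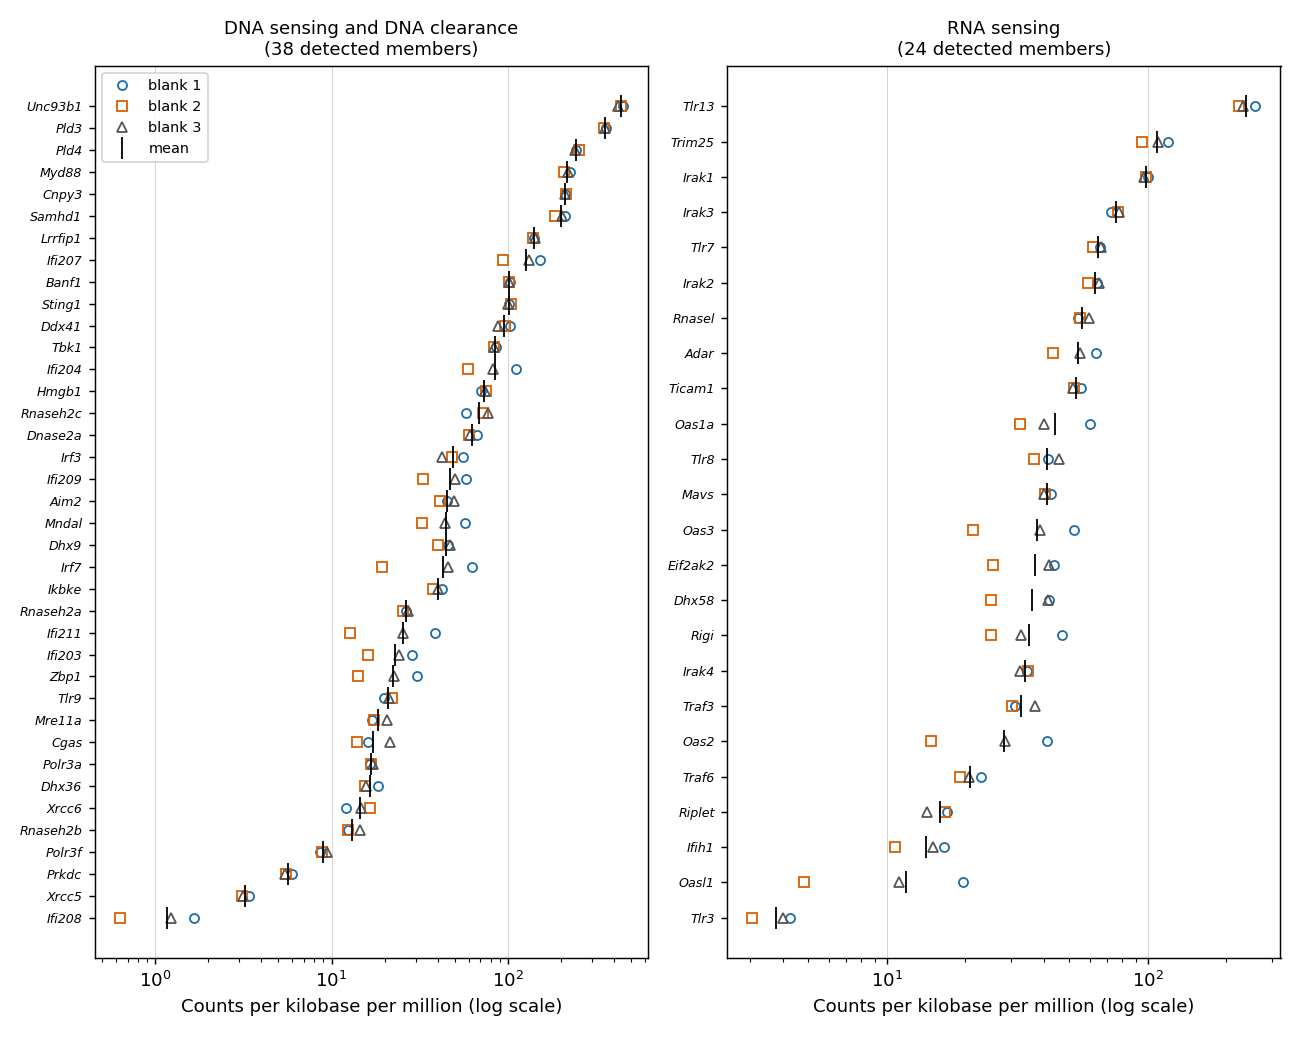
Levels per length of the detected genes of DNA sensing and clearance (38, left) and RNA sensing (24, right) in the 3 blank libraries, in TPM on log axes, with a bar for the mean. Sting1 (102) lies above Cgas (17.2) in all 3 libraries, and genes such as Irf7, Ifi211, Oas2 and Oas3 show blank 2 left of and blank 1 right of the mean.

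Of 31 genes tied to MDSC function 27 were detected, and the oxidase, haem and checkpoint genes stood above those of arginine and nitric oxide metabolism. The haem oxygenase gene Hmox1 had 3060, 3702 and 3203 reads at 1420 TPM ± 48.6 (SD, n = 3). The phagocyte oxidase genes Ncf4 and Cybb stood at 760 TPM ± 30.1 (SD, n = 3) and 680 TPM ± 30.0 (SD, n = 3), next to Cyba above. Tgfb1 stood at 356 TPM ± 16.3 (SD, n = 3), Cd274, the gene of the checkpoint ligand PD-L1, at 175 TPM ± 13.5 (SD, n = 3), and the cystine transporter gene Slc7a11 at 140 TPM ± 7.80 (SD, n = 3).

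Arg1, the arginase gene most often used to mark suppressive myeloid cells, had no read in any library, which allows up to 0.232 CPM over the group. None of its windows occurs in another gene. Arg2, the mitochondrial arginase gene, had 195, 221 and 183 reads at 105 TPM ± 2.79 (SD, n = 3). Nos2, the inducible nitric oxide synthase gene, had 0, 1 and 6 reads, all but 1 of them in blank 3. Il10 and Slc27a2, the fatty acid transporter gene of polymorphonuclear MDSCs, had 1 read each, and Ptgs2, the inducible cyclooxygenase gene, had 20, 20 and 18 reads. S100a8, S100a9, Cyba, Cybb and Trem1 of this list also belong to the neutrophil list.

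Of 34 cytokine and chemokine genes 28 were detected. Ccl6, a chemokine gene of resting myeloid cells, had 4385, 5065 and 4367 reads at 1923 TPM ± 43.4 (SD, n = 3), far above Ccl22 and Ccl9, the latter at 559 TPM ± 24.1 (SD, n = 3). Tnf stood at 176 TPM ± 10.5 (SD, n = 3). Il6, the gene of an added cytokine, had 6, 11 and 8 reads, and Csf2, which encodes GM-CSF, had none. Il23a had 2 reads, and Csf3 had 1, 0 and 3.

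All 19 lipid mediator genes were detected, led by Alox5ap, the activating protein of leukotriene synthesis, at 1646 TPM ± 33.8 (SD, n = 3), and Pla2g7, which breaks down platelet-activating factor, at 1171 TPM ± 43.2 (SD, n = 3). All 28 lysosome genes were detected, with a median of 418 TPM and Ctsz, Cstb, Ctsd and Lamp1 between 2590 and 1541 TPM after Psap, Cst3 and Ctss. All 17 glycolysis genes were detected, led by Aldoa at 2292 TPM ± 35.4 (SD, n = 3) and Pkm at 1930 TPM ± 38.6 (SD, n = 3), but Eno1 and Pgk1 share 65.4% and 67.5% of their windows. Of the iron genes, Hamp, the hepcidin gene, was the only one with no read.

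All 25 cell cycle genes were detected. Mki67 had 1666, 1528 and 1674 reads at 122 TPM ± 18.3 (SD, n = 3) and was lowest in blank 2. Top2a, which untangles chromosomes, had 962, 1176 and 1016 reads at 87.3 TPM ± 3.31 (SD, n = 3). Tubb5 led the list at 1224 TPM ± 78.6 (SD, n = 3), and Cdkn1a, an inhibitor of the cycle, followed at 361 TPM ± 13.5 (SD, n = 3).

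Of 13 mitochondrially encoded protein genes 7 were detected. The other 6, mt-Co2, mt-Co3, mt-Atp6, mt-Atp8, mt-Nd3 and mt-Nd4l, were listed at 0 reads, although every cell with mitochondria uses them. For 5 of these 6, mt-Atp8 being the exception, 97.8% to 99.9% of the windows occur in other genes, against 61.5% for mt-Nd4, 39.8% for mt-Co1 and 0% for mt-Cytb and mt-Nd1, so mt-Nd4 and mt-Co1 are uncertain too. mt-Co1 had 34073, 43592 and 33305 reads, mt-Cytb had 11502, 15898 and 12161, and mt-Nd1 had 7059, 9617 and 6946. On the CPM scale blank 2 was highest for all 3, with 9088 CPM of mt-Co1 against 8287 and 8288.

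The 3 libraries were close to each other. Pairs differed beyond sampling noise, with a chi-square per degree of freedom of 1.57 to 2.03 over genes that reached 20 reads in a pair, so each was counted as a library of its own. Between 156 and 190 of the 11602 detected genes stood at least 2-fold apart in each pair. Detected genes include many with few reads, and those with a mean from 1 to 10 CPM had a median CV of 22.2%. The biological coefficient of variation, the spread beyond counting noise that edgeR estimates over 12246 genes, was 4.48%. Over the 7146 protein-coding genes with a mean of at least 20 CPM the median CV was 5.79%, and 39 genes exceeded 25%. The median CV expected from counting noise alone was 6.10%. An SD from 3 libraries tends to fall below the true SD, so these medians cannot show that further spread is absent.

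The 15 genes with the largest CV held 5 of the interferon list (Irf7, Mx1, Oasl2, Xaf1 and Stat2), 3 of the RNA sensing list (Oas1a, Oas2 and Oas3) and Zbp1 of the DNA sensing list. Every one of these 15 was highest in blank 1 and lowest in blank 2. Irf7, the factor that amplifies interferon alpha genes, stood at 73.2, 22.9 and 53.3 CPM in blank 1, 2 and 3, a CV of 50.8% where counting noise gives 6.85%. Slfn5, a Schlafen family gene, stood at 142, 44.6 and 111 CPM, a CV of 50.1%. Mx1, an antiviral GTPase gene, had 152, 62 and 123 reads.

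The 2′-5′-oligoadenylate synthetases make the messenger that activates RNase L, and Oas2 had 232, 99 and 157 reads while Oas3 had 469, 229 and 341. Rnf213, a large ubiquitin ligase gene, stood at 407, 174 and 272 CPM. Zbp1, a sensor of Z-form nucleic acids, had 136, 75 and 99 reads. Slfn4, Irgm1, Parp14 and Ifi47 made up the rest, with CVs of 31.9% to 35.4%. Among the 40 genes of largest CV 31 had this order of libraries, against 17.4% of the 7146 genes.

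**Figure D4:**
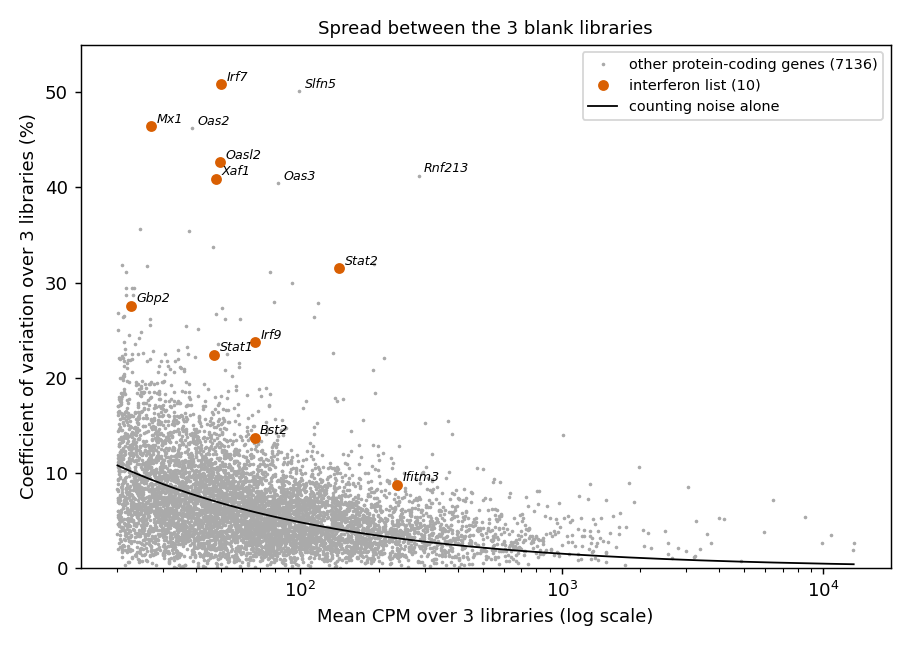
Coefficient of variation of CPM over the 3 blank libraries against mean CPM (log axis) for 7146 protein-coding genes with a mean of at least 20 CPM, with 10 interferon list genes as large points and the spread that counting noise alone gives as a line. Irf7 (50.8%) and Slfn5 (50.1%) lie highest, while most genes lie near the line. The line is an expected value, and an SD from 3 libraries tends to fall below the true SD.

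The order of libraries was then described over the interferon list, a choice made after the spread had been seen. That order was read from the 15 genes of largest CV, 5 of which are in the list. The list is therefore not independent of that order. Of its 26 genes 19 were detected, and 18 of the 19 (94.7%) were highest in blank 1 and lowest in blank 2, against 16.8% of all detected genes. The exception was Cxcl10, with 13, 16 and 23 reads. Their summed level over the list was 1098, 631 and 859 CPM, and the median member had a CV of 40.9%, against 8.05% for all detected genes. On the log2 scale the median member stood 0.46 above its own mean in blank 1, 0.61 below it in blank 2 (-0.61) and 0.01 above it in blank 3.

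The members differed in level and in size of the spread. Ifitm3, an interferon-induced membrane protein gene that blocks virus entry, was the most abundant at 1121 TPM ± 107 (SD, n = 3) and had the smallest CV, 8.75%. Bst2, which tethers budding viruses and is also in the dendritic cell list, stood at 239 TPM ± 35.01 (SD, n = 3). Ifit2 had 95, 26 and 64 reads and Usp18, a brake on the interferon receptor, 111, 36 and 67, with CVs of 60.0% and 57.2%. Isg15, the ubiquitin-like modifier gene, had 72, 46 and 46 reads. The interferon genes Ifnb1, Ifna4 and Ifng had no read in any library, and Iigp1 had 1.

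The RNA sensing list had the same order of libraries in 13 of 24 detected genes (54.2%) and the DNA sensing list in 12 of 38 (31.6%), next to the 16.8% of all detected genes. Neither list is independent of that order. It was read from the genes of largest CV, which include Oas1a, Oas2 and Oas3 of the former and Irf7 and Zbp1 of the latter. Blank 2 had the highest share of mitochondrially encoded protein genes with reads, at 1.80% against 1.61% in blank 1 and 1.65% in blank 3. Its share of ribosomal protein genes was also the highest, at 2.90% against 2.697% and 2.83%, so blank 1 was lowest for both. Blank 2 also had the most counts and blank 3 the fewest. The summed monocyte list, all 16 genes detected, stood at 7290, 7033 and 7251 CPM, with 3 of 16 genes (18.8%) in this order. The B and plasma cell list, 8 of 12 detected and no member at 0, stood at 342, 318 and 327 CPM, with 3 of 8 (37.5%) in it. The part of these in the interferon list order was not tested. The type I interferon receptor genes Ifnar1 and Ifnar2 had CVs of 2.61% and 2.54%.

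**Figure D5:**
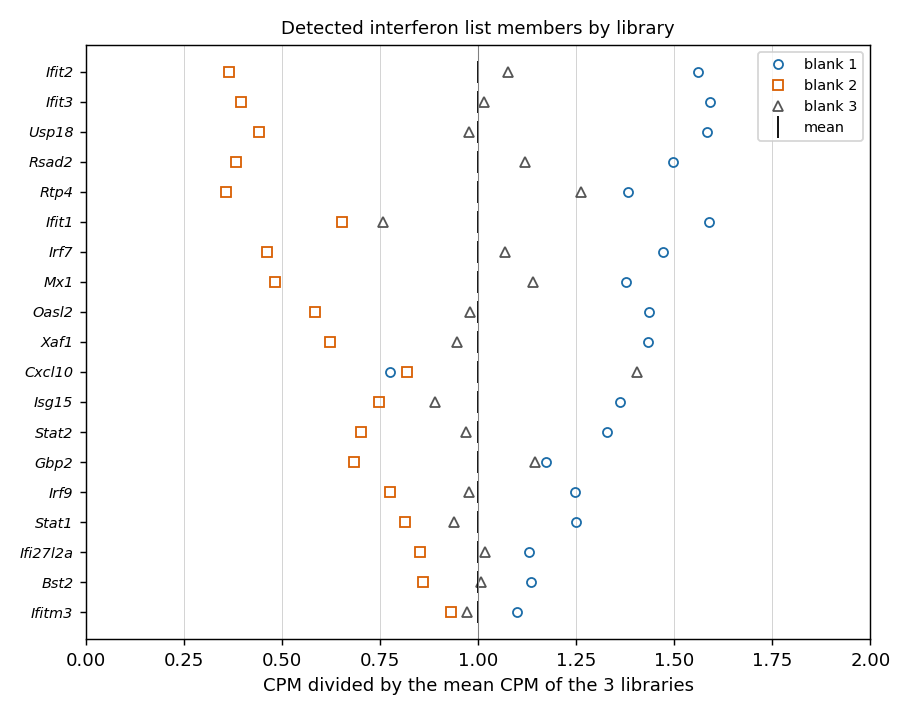
CPM of the 19 detected interferon list genes in each blank library divided by the gene's mean over the 3 libraries, on a linear axis, with genes in order of their coefficient of variation. Blank 2 lies lowest and blank 1 highest for 18 of the 19, and Cxcl10 is the exception.

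Promoters of the genes with the largest spread are shown because these genes moved together between the libraries. The motif searched was TTTCNNTTTC, the core of the interferon-stimulated response element bound by STAT and IRF factors, on both strands, in the 300 bases from 250 before to 50 after each RefSeq gene start (build GRCm38.p6). Of the 15 genes 11 had a promoter entry and 5 of these held the motif, as did 9 of the 14 detected interferon list genes with an entry, against 3.92% of the 9031 detected genes with an entry and 3.44% of all 32851 windows. The interferon list was made of interferon-related genes and shares members with the 15, such as Stat2. Its share with the motif is therefore not independent of theirs or of how the list was made. The 250 bases before the start of the 5 motif-holding genes of the 15 follow, 5′ to 3′ on the strand of the gene, with the motif in capitals. In Irgm1 and Oas1a 2 matches overlap and are printed as a single run.
Slfn5 promoter, chr11:82951852-82952101, plus strand: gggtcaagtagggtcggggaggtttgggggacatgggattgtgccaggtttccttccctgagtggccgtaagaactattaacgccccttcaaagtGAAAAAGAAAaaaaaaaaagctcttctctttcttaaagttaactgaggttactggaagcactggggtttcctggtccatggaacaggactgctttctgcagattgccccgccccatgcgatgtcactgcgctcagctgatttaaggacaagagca
Oas3 promoter, chr5:120777660-120777909, minus strand: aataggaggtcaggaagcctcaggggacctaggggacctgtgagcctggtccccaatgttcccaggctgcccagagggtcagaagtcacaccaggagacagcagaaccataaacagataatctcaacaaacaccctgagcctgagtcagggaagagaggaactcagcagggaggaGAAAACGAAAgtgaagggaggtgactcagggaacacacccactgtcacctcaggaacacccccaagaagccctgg
Irgm1 promoter, chr11:48871421-48871670, minus strand: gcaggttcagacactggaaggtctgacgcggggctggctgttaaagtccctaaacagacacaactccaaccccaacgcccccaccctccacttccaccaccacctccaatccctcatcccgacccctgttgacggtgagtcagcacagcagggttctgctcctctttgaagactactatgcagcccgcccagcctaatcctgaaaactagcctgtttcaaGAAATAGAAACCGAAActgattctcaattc
Oas1a promoter, chr5:120907526-120907775, minus strand: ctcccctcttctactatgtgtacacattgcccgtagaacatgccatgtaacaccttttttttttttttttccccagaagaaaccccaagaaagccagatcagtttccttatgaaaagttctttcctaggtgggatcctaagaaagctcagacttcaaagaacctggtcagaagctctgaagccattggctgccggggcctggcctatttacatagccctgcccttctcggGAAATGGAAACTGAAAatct
Stat2 promoter, chr10:128270248-128270497, plus strand: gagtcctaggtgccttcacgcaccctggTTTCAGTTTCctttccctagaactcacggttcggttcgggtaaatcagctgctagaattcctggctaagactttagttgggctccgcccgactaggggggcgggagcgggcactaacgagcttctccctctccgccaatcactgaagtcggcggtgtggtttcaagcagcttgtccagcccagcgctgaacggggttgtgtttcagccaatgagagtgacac
The printed run of capitals began 20 bases before the start in Oas1a, 30 in Irgm1 and 222 in Stat2. Mx1, Oas2, Zbp1 and Parp14 had no entry. A match is a description of these letters and not of a bound site, and binding was not measured.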

How the data were processed

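RNA sequencing of 3 blank MDSC cultures was used, and the 3 transfected cultures of the same table were left out. The deposited table holds raw counts, whole numbers of reads per gene and library, made from directional poly(A) libraries with single-end 75-base reads, per the labels' protocols. STAR 2.7.10a, FastQC, DESeq2 and the build GRCm39 come from the submitters' processing notes, and column names show STAR's per-gene output, per the file headers. Not given in the sources used here are the annotation release and strand setting. Reads that map to several places are left out of such counts, so genes with near-identical copies can lose reads.

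Of 55359 Ensembl IDs, 52083 matched a symbol in GENCODE M21 (GRCm38). The 3276 unmatched IDs hold 0.249% of the counts. That annotation gave names, types and exon lengths. Counts were scaled to CPM by column totals and, per length, to TPM, with Python 3.11.15 and pandas 2.3.3. Sharing of sequence was measured on the longest transcript, as the percent of its 75-base windows that also occur in another gene's transcripts. The biological coefficient of variation came from edgeR 4.0.16 in R 4.3.3, with an intercept-only design over genes with a mean of at least 1 CPM, and the estimate was tested on simulated data. No groups were compared, so no test between groups was made.

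The members and the 35 gene lists (593 genes) were chosen with earlier results of these data known. Azu2 matched no row. Named genes are the 20 highest protein-coding nuclear genes per length, up to 5 highest members of each list, members with at most 3 reads, the 6 marker genes, the 15 genes of largest CV with a mean of at least 20 CPM, and defining receptors, sensors or markers. Alternatives were TMM, upper-quartile and DESeq2 1.42.0 median-ratio scaling, other filters and lengths, and omission of each library. Those on the order of libraries in the interferon list were chosen after seeing the data.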

Additional observations from a re-analysis of the deposited data

How the results depend on the processing

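Of 46 alternative values 38 stayed within 1 SD of the reported value or, for counts, within 1.5 times. Scaling by TMM, median-ratio or upper-quartile factors moved none of the results it was applied to. With no filter, 19106 genes had a read, against 11602 detected. The 50 most abundant genes took 16.03% of the counts when only nuclear protein-coding genes were counted. The neutrophil sum was 44335.5 as summed TPM and 17045.3 CPM without its most abundant member, and the monocyte and macrophage sum was 48525.2 as summed TPM and 19265.0 CPM without Lyz2. Without Lyz2 the monocyte and macrophage sum is below the full neutrophil sum of 19688.7 CPM. With the most abundant member of each sum left out, the monocyte and macrophage sum stays the higher in CPM only. Per length the order reverses, because Lyz2 alone stood at 26309 TPM and S100a9, the highest neutrophil list gene per length, at 11672 TPM. Which sum is the higher thus depends on Lyz2 and on the scale. With 20 CPM required in each library, 8 of 8 interferon list genes had the order of libraries of 18 of 19.

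Leaving out each library in turn gave 11709 to 11830 detected genes, 16.5% to 16.69% of counts in the 50 most abundant genes, 1.63% to 1.724% in mitochondrially encoded protein genes, 19548.2 to 19865.9 CPM for the neutrophil sum, 29784.0 to 30161.8 CPM for the monocyte and macrophage sum, and a biological coefficient of variation of 3.692% (without blank 2) to 5.199% (without blank 3). No paired analysis was possible because a single group is described and no result comes from a test between groups. Depth limits genes under 0.232 CPM over the group, which are not detectable here.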

Other observations

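The blank cultures carried RNA from the Y chromosome and none from Xist, the RNA that silences an X chromosome in female cells. Eif2s3y had 341, 390 and 320 reads in blank 1, 2 and 3, and Ddx3y had 285, 276 and 241. Uty stood at 8.05 TPM ± 0.531 (SD, n = 3) and Kdm5d at 6.23 TPM ± 0.430 (SD, n = 3). Xist had no read, which allows up to 0.232 CPM over the group, and Tsix had 1. The labels do not give the sex of the mice.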
